A study of Homo sapiens with 9 samples.

Results

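Copper delivery to cytochrome c oxidase was described here through 10 genes, COX17, SCO1, SCO2, COX11, COX19, COX16, CMC1, COA5, COA6 and SURF1, in MDA-MB-231 cells treated with the copper chelator TEPA. The genes were chosen by name for their known part in handing copper to the enzyme or in assembling it. Earlier results of these data were known when they were chosen. All 10 were among the 59453 gene names of the count table, and all 10 were among the 16556 genes that passed the filter on low counts. Each held between 177 and 4383 counts in every library, so that counting error alone lay between 7.52% and 1.51% of a value.

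Cytochrome c oxidase, also called complex IV, is the last enzyme of the respiratory chain and reduces oxygen to water. Its core subunits are encoded in mitochondrial DNA and hold copper at a pair of sites, CuA in COX2 (gene MT-CO2) and CuB in COX1 (gene MT-CO1), beside heme a. Copper reaches these sites in the intermembrane space, where COX17 passes it to SCO1 and SCO2 for CuA and to COX11 for CuB, while small proteins with twin CX9C motifs keep the partners in a state that can bind and release copper.

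RNA-Seq was performed by the study in MDA-MB-231, an established human triple-negative breast cancer line of mesenchymal character, to follow the transcriptome under copper chelation. There were 3 groups of 3 libraries, namely untreated cells, cells treated with TEPA for 8 h and cells treated with TEPA for 24 h. A single untreated group served both times, and the labels give no hours for it. It cannot match both 8 h and 24 h, so hours in culture may differ along with TEPA in the comparisons with untreated cells. The concentration of TEPA is 8 mM in the sample labels, 4 mM in the RNA sequencing methods and 4 and 8 mM in the treatment methods, and the reagent methods name trientine, as dihydrochloride, for the compound. Nothing states that the replicates came from separate cultures, so the p-values measure the spread between these libraries, which may be technical.

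Total counts ran from 34633755 to 49342659 per library. The line was checked by its markers. VIM averaged 3674 CPM (counts per 1000000, on library sizes scaled by TMM factors) and CD44 859 CPM in untreated cells, whereas PGR was at 0 counts in all 9 libraries and ESR1, EPCAM and CDH1 averaged 0.155, 1.13 and 0.624 CPM. ERBB2, which this line is known to carry at a low level, averaged 81.4 CPM. Of markers of other cells, CD3E was at 0 in all 9 libraries, PTPRC averaged at most 0.0675 CPM in any group, and PECAM1 averaged 3.59, 1.06 and 8.13 CPM in untreated cells, at 8 h and at 24 h. The part of PECAM1-expressing cells in the results was not tested. Because the RNA came from bulk cultures, fewer cells expressing a gene and less RNA per cell cannot be told apart.

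The question of each comparison was whether the RNA of these genes differed after TEPA. At 8 h, 7 of the 10 genes were called, meaning a Benjamini-Hochberg adjusted p under 0.05 in edgeR's quasi-likelihood test, against 49.6% of all genes tested. SCO1, COX19 and COA6 rose, as 25.2% of all genes did, and COX17, COX16, CMC1 and SURF1 fell, as 24.5% did. At 24 h, 6 were called against 52.5% of all genes, with COX19, COA5 and COA6 higher than in untreated cells (25.7% of all genes) and SCO2, COX16 and CMC1 lower (26.8%). COX19 and COA6 were therefore higher, and COX16 and CMC1 lower, at both times, but both comparisons used the same untreated libraries. The changes were small. No edgeR log2 fold change among the 10 was beyond 0.5 at either time, the furthest from 0 being 0.46, whereas 17.8% of all genes passed the test beyond that limit at 8 h and 18.7% at 24 h. The median log2 fold change of the 10 genes was -0.10 at 8 h and 0.02 at 24 h, beside -0.0013 and 0.0023 over all genes tested.

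**Figure D1:**
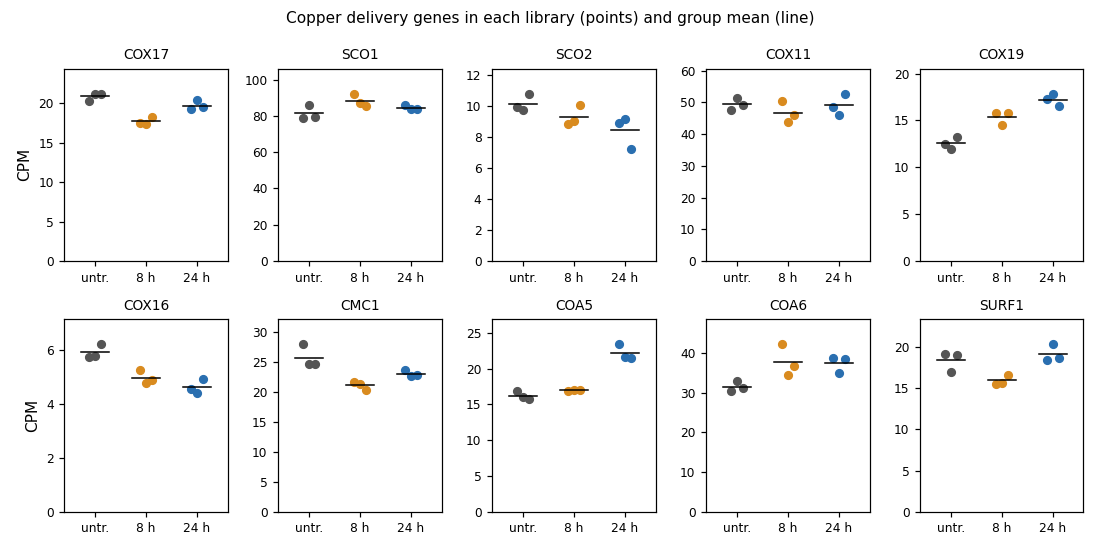
CPM of each of the 10 genes (vertical axis, from 0) in the 3 untreated, 3 TEPA 8 h and 3 TEPA 24 h libraries, with points for libraries and a line at each group mean. COX17 dips at 8 h, COX19 is higher in all 6 TEPA libraries than in any untreated one, and COA5 stands apart at 24 h only, between 21.4 and 23.4 CPM.

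COX17, the chaperone that brings copper to the other carriers of the intermembrane space, had 20.2, 21.1 and 21.2 CPM without TEPA, then 17.5, 17.3 and 18.2 CPM in the 8 h libraries and 19.2, 20.4 and 19.5 CPM in the 24 h libraries. All 3 libraries at 8 h lay below all untreated ones, while those at 24 h overlapped them. At 8 h COX17 fell by 0.24 on the log2 scale (SE 0.06, adjusted p = 0.0024), which is 15.2% below untreated cells. At 24 h the log2 fold change was -0.08 (SE 0.06, adjusted p = 0.23). COX17 lies on chromosome 3 (hg38, chr3:119654513-119677454, minus strand), and its reference transcript, the MANE Select one, has 3 exons and 426 bases. Some of its other annotated exons overlap POPDC2 on the same strand, but no base of its reference transcript was shared. A pseudogene with its name, COX17P1, held at most 6 counts in any library.

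The bases just upstream of COX17 are shown because this was the 1 promoter among those matched that held the palindrome bound by NRF1, a transcription factor known for control of genes for respiration. The RefSeq promoter table (GRCh38.p14, windows of 300 bases around each start) matched 8 of the 10 genes, and SCO2 and COX11 were not matched. COX17 and COA6 had more than 1 window each, so a count of genes and a share of windows are unlike measures. CGCATGCG, the core of the palindrome, which reads alike on both strands, was found in 1 of these 8 genes and in 2.02% of 35116 windows. It is in capitals in the 202 bases before the gene, chr3:119677455-119677656, minus strand, and its first base is at position -115 from the RefSeq start.
COX17 upstream: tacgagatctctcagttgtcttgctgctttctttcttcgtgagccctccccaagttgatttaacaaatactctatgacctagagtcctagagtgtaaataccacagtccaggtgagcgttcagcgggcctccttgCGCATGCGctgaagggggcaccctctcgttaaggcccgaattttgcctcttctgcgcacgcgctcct
A match of letters is a description of the sequence and not a measurement of binding.

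SCO1 and SCO2, a pair of related copper carriers that fill the CuA site of COX2, differed in the times at which they were called. The CPM of SCO1 was the higher, but its reference transcript has 9577 bases and that of SCO2 has 984. Per kilobase of these transcripts SCO2 stood at 10.3 CPM and SCO1 at 8.50 CPM in untreated cells. SCO1 gave 78.8, 85.9 and 79.5 CPM untreated, 92.2, 87.0 and 85.4 CPM after 8 h and 86.0, 83.7 and 83.6 CPM after 24 h. Untreated replicate 2 lay within the range of the TEPA libraries at both times. SCO1 rose by 0.12 on the log2 scale at 8 h (SE 0.04, adjusted p = 0.039) and at 24 h its fold change was 0.05 on that scale (SE 0.04, adjusted p = 0.33). Its call at 8 h was lost without untreated replicate 1 or 3, or without TEPA 8 h replicate 1 or 2, where the log2 fold change was 0.09, 0.09, 0.08 and 0.12 and the adjusted p 0.117, 0.165, 0.196 and 0.0744. SCO1 is on chromosome 17 (chr17:10672474-10698375, minus strand) with 6 exons in its reference transcript.

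SCO2 was at 9.92, 9.74 and 10.8 CPM in the untreated libraries, at 8.85, 9.05 and 10.0 CPM after 8 h of TEPA and at 8.93, 9.15 and 7.23 CPM after 24 h. The 8 h libraries overlapped the untreated ones, whereas all 3 at 24 h lay below them, with replicate 3 the lowest. At 8 h its log2 fold change was -0.13 (SE 0.09, adjusted p = 0.29), and at 24 h SCO2 fell by 0.26 (SE 0.09, adjusted p = 0.028). Without untreated replicate 3 the latter was -0.22 (adjusted p = 0.111) and without TEPA 24 h replicate 3 it was -0.17 (adjusted p = 0.134). SCO2 is on chromosome 22 (chr22:50523568-50526461, minus strand) and overlaps TYMP on the same strand, although no base of its reference transcript was shared. For TYMP the value at 8 h was -0.46 on the log2 scale (adjusted p = 0.026), with overlapping libraries and a call lost without untreated replicate 1 or 3 or TEPA 8 h replicate 1, within -0.63 to -0.29 over all alternatives. At 24 h TYMP had 0.27 (adjusted p = 0.148), within 0.10 to 0.43 over all alternatives. From 8 h to 24 h TYMP rose by 0.72 (adjusted p = 0.00096).

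COX11, which carries copper to the CuB site of COX1, was the gene of this group with no call in any comparison. It had 47.7, 51.4 and 49.2 CPM without TEPA, then 50.3, 43.9 and 46.1 CPM in the 8 h libraries and 48.4, 46.1 and 52.7 CPM in the 24 h libraries. The libraries of the 3 groups overlapped throughout. Its log2 fold change was -0.08 at 8 h (SE 0.06, adjusted p = 0.28) and -0.01 at 24 h (SE 0.06, adjusted p = 0.86). COX11 is on chromosome 17 (chr17:54951902-54968703, minus strand), and a pseudogene with its name, COX11P1, held at most 3 counts in any library.

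COX19, a twin CX9C protein that works with COX11, had the largest fitted rise of the 10 genes at each time. COA6 was close to it at 8 h (0.26 beside 0.29 on the log2 scale) and COA5 at 24 h (0.45 beside 0.46). COX19 gave 12.5, 12.0 and 13.2 CPM untreated, 15.8, 14.5 and 15.8 CPM after 8 h and 17.2, 17.9 and 16.6 CPM after 24 h. Neither TEPA group overlapped the untreated libraries, and all 3 libraries at 24 h lay above all 3 at 8 h. COX19 rose by 0.29 on the log2 scale at 8 h (SE 0.07, adjusted p = 0.0018), or 22.5%, and by 0.46 at 24 h (SE 0.07, adjusted p = 2.5e-05), or 37.4%. The gene is on chromosome 7 (chr7:898778-975549, minus strand). Some of its other annotated exons overlap ADAP1 on the same strand, which rose by 0.36 at 24 h (adjusted p = 0.0041), but no base of the reference transcript of COX19 was shared.

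COX16, which joins COX2 and helps bring in SCO1, had the lowest CPM of the 10 genes. It was at 5.73, 5.80 and 6.21 CPM in the untreated libraries, at 5.25, 4.78 and 4.90 CPM after 8 h of TEPA and at 4.57, 4.40 and 4.92 CPM after 24 h. Every TEPA library lay below every untreated one. COX16 fell by 0.25 on the log2 scale at 8 h (SE 0.09, adjusted p = 0.038) and by 0.36 at 24 h (SE 0.09, adjusted p = 0.0044). At 8 h the call was lost without untreated replicate 3, TEPA 8 h replicate 2 or TEPA 8 h replicate 3, where the log2 fold change was -0.22, -0.23 and -0.24 and the adjusted p 0.111, 0.106 and 0.0845. COX16 is on chromosome 14 (chr14:70325081-70416984, minus strand) and shares 623 of the 1669 exon bases of its reference transcript with SYNJ2BP or the read-through gene SYNJ2BP-COX16, so its counts are uncertain. SYNJ2BP-COX16 held at most 1 count in any library, and SYNJ2BP rose by 0.55 at 24 h (adjusted p = 7.7e-06).

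CMC1, COA5 and COA6 are further small proteins of complex IV assembly that carry a CX9C motif. CMC1, which binds newly made COX1, had 27.9, 24.6 and 24.6 CPM without TEPA, then 21.6, 21.3 and 20.3 CPM in the 8 h libraries and 23.7, 22.6 and 22.7 CPM in the 24 h libraries. All 6 TEPA libraries lay below the untreated ones, and those at 24 h lay between the other groups. CMC1 fell by 0.28 on the log2 scale at 8 h (SE 0.06, adjusted p = 0.0012) and by 0.16 at 24 h (SE 0.06, adjusted p = 0.037). At 24 h CMC1 no longer passed without untreated replicate 1 (log2 fold change -0.10, adjusted p = 0.163), TEPA 24 h replicate 2 (-0.14, adjusted p = 0.094) or TEPA 24 h replicate 3 (-0.15, adjusted p = 0.0867). CMC1 is on chromosome 3 (chr3:28241584-28325142, plus strand).

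COA5, required for an early step of complex IV assembly, gave 16.9, 16.0 and 15.8 CPM untreated, 16.9, 17.0 and 17.0 CPM after 8 h and 23.4, 21.7 and 21.4 CPM after 24 h. The 8 h libraries overlapped the untreated ones and the 24 h libraries stood clear of both. Its log2 fold change at 8 h was 0.06 (SE 0.06, adjusted p = 0.40). At 24 h COA5 rose by 0.45 (SE 0.06, adjusted p = 9.9e-06), or 36.7%, the smallest p among the 10 genes in that comparison. COA5 is on chromosome 2 (chr2:98599314-98608515, minus strand), and its reference transcript overlaps no exon of another gene.

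COA6, a thiol reductase that acts on SCO1, SCO2 and COX2 so that copper can enter, was at 30.4, 33.0 and 31.2 CPM in the untreated libraries, at 42.2, 34.4 and 36.9 CPM after 8 h of TEPA and at 38.8, 34.9 and 38.6 CPM after 24 h. Every TEPA library lay above every untreated one, and TEPA 8 h replicate 1 was the highest of all. COA6 rose by 0.26 on the log2 scale at 8 h (SE 0.07, adjusted p = 0.0052) and by 0.25 at 24 h (SE 0.07, adjusted p = 0.0066), with both calls kept when any one library was left out. The gene is on chromosome 1 (chr1:234373456-234385080, plus strand).

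SURF1, an assembly factor tied to the heme a of COX1 rather than to copper, had 19.1, 17.0 and 19.0 CPM without TEPA, then 15.5, 15.7 and 16.6 CPM in the 8 h libraries and 18.4, 20.3 and 18.6 CPM in the 24 h libraries. The 8 h libraries lay below all others. SURF1 fell by 0.21 on the log2 scale at 8 h (SE 0.07, adjusted p = 0.019) and at 24 h its fold change was 0.06 on that scale (SE 0.07, adjusted p = 0.50). At 8 h SURF1 no longer passed without untreated replicate 1 or 3, or TEPA 8 h replicate 1 or 2, where the log2 fold change was -0.18, -0.19, -0.19 and -0.20 and the adjusted p 0.0547, 0.0664, 0.0584 and 0.0569. SURF1 is on chromosome 9 (chr9:133351758-133356676, minus strand).

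**Figure D2:**
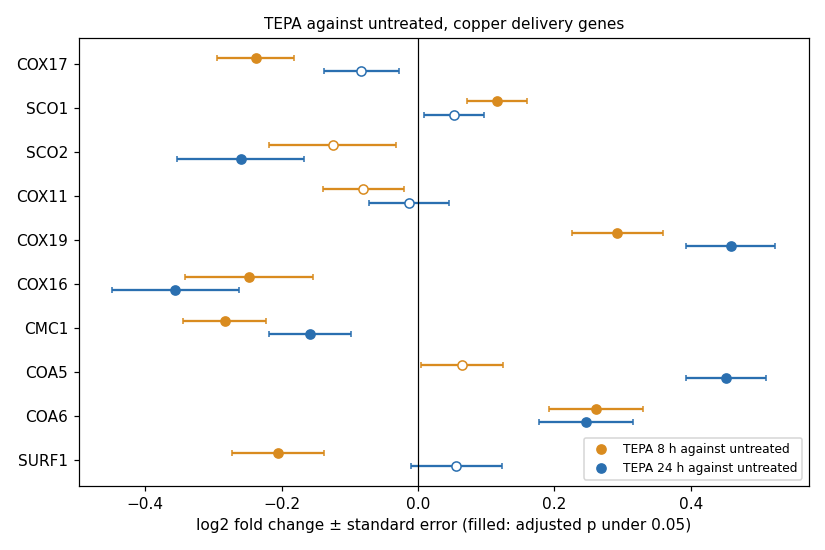
Log2 fold change against untreated cells (horizontal axis, bars are standard errors) for each gene at 8 h and 24 h of TEPA, filled where the adjusted p was under 0.05, with 3 libraries a group. The values at 8 h run from -0.28 for CMC1 to 0.29 for COX19, and at 24 h from -0.36 for COX16 to 0.46 for COX19.

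In 6 of the 10 genes the 8 h libraries did not overlap the untreated ones, a separation seen in 57.8% of all genes tested, and at 24 h the number was again 6 of 10, against 57.2%. The rule of separation took in COX17, COX19, COX16, CMC1, COA6 and SURF1 at 8 h and COX19, COX16, CMC1, SCO2, COA5 and COA6 at 24 h. Added together, the 10 genes made 269 to 277 CPM in untreated cells, 265 to 286 CPM at 8 h and 281 to 289 CPM at 24 h. The sum at 8 h overlapped that of untreated cells, and the sum at 24 h lay above it in all 3 libraries. Genes with more counts weigh more in this sum, which is not divided by length, and SCO1 alone averaged 81.4 CPM in untreated cells. The sum was not compared with that of other genes, and it does not show a shared direction of the 10.

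The libraries at 24 h and at 8 h were then compared directly, to ask which genes differed between the times. COX17, COX19, COA5 and SURF1 were higher at 24 h, and 4 of 10 called compares with 54.8% of all genes (26% higher and 28.8% lower). None of the 10 fell, by the adjusted p or at an unadjusted p under 0.05 in edgeR, nor by DESeq2, and none passed with a log2 fold change beyond 0.5, against 21.2% of all genes. The difference was 0.39 for COA5 (SE 0.06, adjusted p = 4.2e-05) and 0.26 for SURF1 (SE 0.07, adjusted p = 0.0036) on the log2 scale. It was 0.16 for COX17 (SE 0.06, adjusted p = 0.029) and 0.17 for COX19 (SE 0.06, adjusted p = 0.039). All 3 libraries at 24 h lay above all 3 at 8 h for each of these and for CMC1, whose difference of 0.13 did not pass (SE 0.06, adjusted p = 0.095), so 5 of 10 genes were separated against 62% of all genes. The remaining genes had differences of -0.13 (SCO2), -0.11 (COX16), -0.06 (SCO1), -0.01 (COA6) and 0.07 (COX11), with libraries that overlapped. COX17 no longer passed without TEPA 8 h replicate 1 (0.15, adjusted p = 0.0629), TEPA 8 h replicate 2 (0.15, adjusted p = 0.0831) or TEPA 24 h replicate 2 (0.13, adjusted p = 0.092), and COX19 without TEPA 8 h replicate 2 or 3 or TEPA 24 h replicate 1 or 2 (differences of 0.13, 0.19, 0.17 and 0.14, adjusted p = 0.149, 0.0514, 0.0891 and 0.118). Hours in culture and hours of TEPA cannot be told apart in this comparison.

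The genes whose pattern was most like that of COX17, by the Pearson correlation of log2 CPM over the 9 libraries among 11920 genes with a mean of at least 100 counts, were FAM32A (0.982), ARPC3P3 (0.981), HBEGF (0.970), DUXAP8 (0.969) and GPR39 (0.968). The 9 points share their libraries and fall in 3 groups, so this is a description of the pattern. The other 9 copper delivery genes were left out of this ranking beforehand, so it does not show how closely they follow COX17.

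Levels can be set side by side between genes only per length. Over the exons of the MANE Select transcript, COX17 stood at 48.9 ± 1.31 CPM per kilobase in untreated cells (SD, n = 3), the highest of the 10. COA6 followed at 18.1 ± 0.749, SURF1 at 16.8 ± 1.11 and COX11 at 15.7 ± 0.595 CPM per kilobase, and neighbours in this order overlapped between libraries. SCO2 stood at 10.3 ± 0.578, COA5 at 9.17 ± 0.337 and SCO1 at 8.50 ± 0.409 CPM per kilobase, with COA5 and SCO1 overlapping. The lowest levels per length were those of CMC1 at 4.28 ± 0.315, COX16 at 3.54 ± 0.156 and COX19 at 2.59 ± 0.124 CPM per kilobase. Over its 1046 bases not shared with another gene COX16 stood at 5.66 CPM per kilobase, above CMC1. When all annotated exons were counted as the length, a choice added after the data were seen, COA6 came first at 13.8 and COX17 followed at 10.9 CPM per kilobase, with COX16 at 3.09 and CMC1 at 2.44. Without division by length SCO1 came first at 81.4 CPM.

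**Figure D3:**
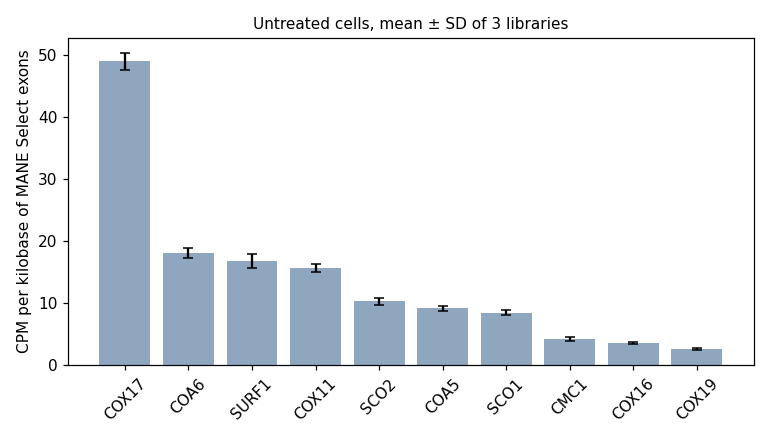
CPM per kilobase of MANE Select exons (vertical axis, from 0) of the 10 genes in untreated cells, as mean and SD of 3 libraries, in descending order. COX17 stands at 48.9 CPM per kilobase and the other 9 genes between 2.59 and 18.1.

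Several of the members start back to back with another gene on the opposite strand, and these partners, chosen after their values were seen, were examined in the same libraries. The distance between the starts of the reference transcripts was 60 bases for SCO1 and ADPRM, an ADP-ribose pyrophosphatase gene, 110 for COX11 and STXBP4, 76 for COA5 and UNC50 and 62 for SURF1 and SURF2. The 3 gaps read from the promoter table are printed on the minus strand, the strand of the copper delivery gene, since each is the DNA that lies between both start sites. CCGGAAG, the core bound by ETS factors, and its reverse complement CTTCCGG are in capitals. This core, on either strand, was present in the promoter windows of 4 of the 8 matched genes (COX17, SCO1, COA5 and SURF1) and in 10.3% of all 35116 windows, and in SURF1 it lay outside the gap. It overlapped no NRF1 match. Here too the members were counted by gene and the share was taken over windows.
SCO1 and ADPRM gap, chr17:10697534-10697593: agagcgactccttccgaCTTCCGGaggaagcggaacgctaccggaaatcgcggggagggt
COA5 and UNC50 gap, chr2:98608513-98608588: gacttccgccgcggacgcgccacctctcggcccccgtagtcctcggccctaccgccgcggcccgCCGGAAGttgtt
SURF1 and SURF2 gap, chr9:133356488-133356549: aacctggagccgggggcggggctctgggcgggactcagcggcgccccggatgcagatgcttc

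SURF2 gave 19.8, 21.6 and 20.7 CPM untreated, 26.6, 26.0 and 25.5 CPM after 8 h and 16.7, 17.5 and 15.4 CPM after 24 h. Its 3 groups did not overlap, being highest at 8 h, when SURF1 was lowest. SURF2 rose by 0.33 on the log2 scale at 8 h (adjusted p = 0.00031), fell by 0.32 at 24 h (adjusted p = 0.00038) and fell by 0.65 from 8 h to 24 h (adjusted p = 2.8e-07), where SURF1 had -0.21, 0.06 and 0.26. SURF1 and SURF2 also share annotated exon bases on opposite strands, and the reads were counted by strand.

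ADPRM was at 7.92, 9.17 and 8.44 CPM in the untreated libraries, at 13.2, 10.8 and 11.1 CPM after 8 h of TEPA and at 10.9, 11.4 and 12.0 CPM after 24 h. It rose by 0.46 at 8 h (adjusted p = 0.00052) and by 0.42 at 24 h (adjusted p = 0.00085), beside 0.12 and 0.05 for SCO1. STXBP4 went from 12.0, 12.6 and 11.3 CPM without TEPA to 16.7, 17.3 and 15.4 CPM after 8 h and 19.5, 16.8 and 18.8 CPM after 24 h. It rose by 0.46 (adjusted p = 0.00011) and 0.62 (adjusted p = 4.1e-06), beside -0.08 and -0.01 for COX11. UNC50 showed the other arrangement, with 35.5, 37.3 and 36.4 CPM untreated, 39.6, 35.8 and 38.5 CPM after 8 h and 37.6, 37.7 and 36.8 CPM after 24 h. It was not called at either time (log2 fold change 0.06 and 0.04), while COA5 rose by 0.45 at 24 h.

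The other genes of the pathway were described as 4 lists of 54 genes in all, of which 54 were tested. At 8 h 8 were higher and 22 lower, 30 in all, or 55.6% against 49.6% of all genes, and at 24 h 4 were higher and 18 lower, or 40.7% against 52.5%. Between 8 h and 24 h, 19 were higher and 14 lower at 24 h, or 61.1% against 54.8%.

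The nuclear subunits of complex IV, the partners that surround the copper-bearing core, moved in 1 direction at 8 h. Of 11, 10 fell, with a median log2 fold change of -0.23 beside -0.0013 over all genes tested and -0.10 for the copper delivery genes, and the exception, COX5A, had -0.08. Of all genes tested, 24.5% were lower at 8 h. COX5B fell by 0.42, from 135, 124 and 132 CPM in untreated cells to 94.6, 98.2 and 100.2 CPM at 8 h, with 116, 122 and 118 CPM at 24 h. COX8A fell by 0.32 and COX7A2 by 0.30 at 8 h. At 24 h 4 of 11 fell, or 36.4%, beside 26.8% of all genes that were lower, with COX7A2 at -0.28, COX4I1 at -0.23 and COX5B at -0.13, and the median was -0.05. COX5B did not pass without untreated replicate 3 or TEPA 24 h replicate 1 (range -0.17 to -0.11). The remaining gene, COX6C, named after its values were seen, had -0.11 and did not pass without untreated replicate 1 or 2 or TEPA 24 h replicate 1 or 2. Without TEPA 24 h replicate 1 the count was 2 of 11. From 8 h to 24 h 8 of 11 rose, beside 26% of all genes, COX6A1 by 0.36, COX5B by 0.28 and COX8A by 0.26.

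Among 24 other assembly genes, 5 rose and 6 fell at 8 h, with a median of -0.01. That is 45.8% of the list, beside 49.6% of all genes tested. LRPPRC, which stabilizes mitochondrial mRNA, rose by 0.26, COX15, needed to make heme A, by 0.21, and the membrane insertase OXA1L by 0.16. TMEM177, a factor of COX2 biogenesis, fell by 0.33, PET100 by 0.28 and HIGD2A by 0.27. The call of PET100 was lost without untreated replicate 3 or TEPA 8 h replicate 1 or 3, and its log2 fold change ran from -0.35 to -0.24 over all alternatives. At 24 h 2 rose and 8 fell, or 41.7% beside 52.5% of all genes, with a median of -0.08. COX15 rose by 0.31 and COX18, which inserts COX2 into the membrane, by 0.22. TMEM177 fell by 0.92, from 12.7, 13.2 and 13.4 CPM in untreated cells to 6.92, 7.18 and 6.59 CPM, and COA3 and COA1, both tied to the making of COX1, fell by 0.55 and 0.53. From 8 h to 24 h 3 of the 24 rose and 10 fell, or 54.2% beside 54.8% of all genes, with TMEM177 at -0.59, LRPPRC at -0.43 and TACO1, an activator of COX1 translation, at -0.40.

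Of 13 further twin CX9C proteins and the proteins that import them, 1 rose and 4 fell at 8 h, and 1 rose and 4 fell at 24 h. Each count is 38.5% of the list, under the 49.6% and 52.5% of all genes called at these times. GFER, which reoxidizes the import receptor CHCHD4, rose by 0.22 at 8 h, and NDUFS5 and NDUFA8 of complex I fell by 0.29 and 0.19, with CHCHD2 at -0.16. At 24 h CHCHD5 rose by 0.33, and CHCHD10, CHCHD4 and NDUFS5 fell by 0.56, 0.26 and 0.19. From 8 h to 24 h 6 of the 13 rose and 3 fell, or 69.2% beside 54.8% of all genes, and without TEPA 24 h replicate 2 the counts were 3 and 3. CHCHD5 rose by 0.49 and CHCHD7 by 0.24, whereas CHCHD10 fell by 0.46, CHCHD4 by 0.30 and GFER by 0.23. CMC4 had 1.39 on 4 to 24 counts a library, ran from 1.13 to 1.62 over the alternatives and did not pass without TEPA 24 h replicate 2. The members that carry a CX9C motif, COX17, COX19, CMC1, COA5 and COA6, did not share 1 direction either.

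The 6 genes that supply copper ahead of the mitochondrion were also mixed. SLC31A1, the copper importer of the plasma membrane, fell by 0.14 at 8 h and 0.13 at 24 h, whereas the related SLC31A2 rose by 0.24 and 0.56. CCS, which loads copper into SOD1, rose by 0.25 at 8 h and had 0.01 at 24 h, and SOD1, a copper enzyme, fell by 0.15 at 8 h and had -0.01 at 24 h. ATOX1, which carries copper to the secretory pathway, had -0.05 at 8 h and fell by 0.12 at 24 h, with libraries that overlapped and a call that was lost without untreated replicate 1 or 3 or TEPA 24 h replicate 1 or 3 and under 6 other alternatives (range -0.16 to -0.09). SLC25A3, the carrier that brings copper and phosphate into the matrix, had 0.03 and -0.05 and was not called. From 8 h to 24 h SLC31A2 rose by 0.32 and SOD1 by 0.14, and CCS fell by 0.23.

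**Figure D4:**
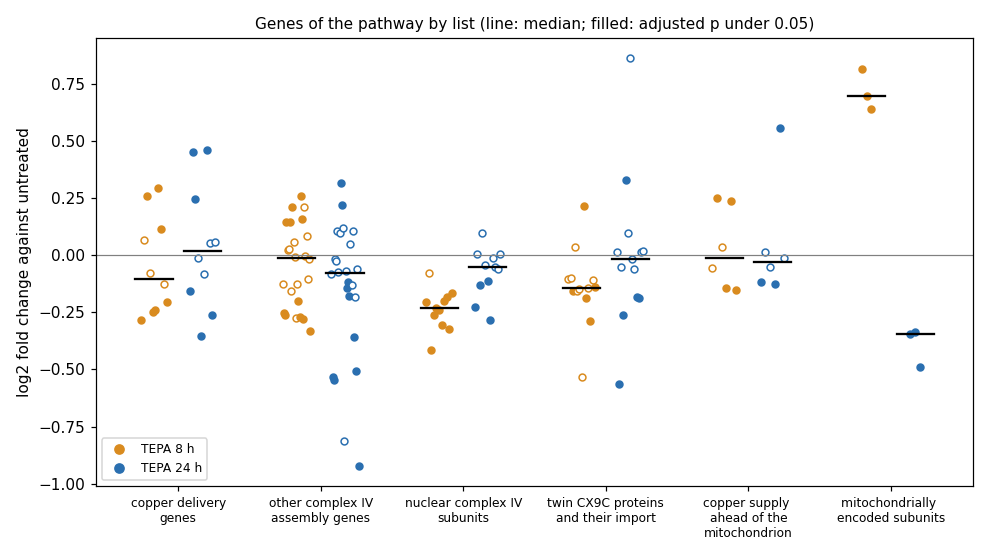
Log2 fold change against untreated cells (vertical axis) of every gene in the 10 copper delivery genes, the 4 other lists and the 3 mitochondrially encoded subunits, at 8 h and 24 h of TEPA, filled where the adjusted p was under 0.05, with lines at list medians. The nuclear subunits lie below 0 at 8 h with a median of -0.23, and the mitochondrially encoded subunits lie at 0.64 to 0.82 at 8 h and at -0.49 to -0.34 at 24 h.

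The mitochondrially encoded subunits, to which the copper and heme are delivered, had larger fitted changes at 8 h than the 10 copper delivery genes, none of which went beyond 0.29 in size. At 8 h MT-CO1 rose by 0.82, MT-CO2 by 0.70 and MT-CO3 by 0.64 on the log2 scale (SE 0.12, 0.10 and 0.10). At 24 h they had -0.34, -0.34 and -0.49 against untreated cells, and from 8 h to 24 h they fell by 1.16, 1.03 and 1.13. MT-CO1 and MT-CO2 were not called at 24 h by DESeq2, and the call of MT-CO1 was also lost without untreated replicate 2 or TEPA 24 h replicate 2 or 3, within a range of -0.49 to -0.13 over all alternatives. At 24 h the libraries of MT-CO1 overlapped the untreated ones. Over all alternatives at 24 h MT-CO2 ran from -0.46 to -0.15 and MT-CO3 from -0.63 to -0.30. The share of all counts from genes named MT- was 1.79%, 2.91% and 2.13% in the untreated libraries. It was 3.61% to 4.02% at 8 h, above every untreated library. At 24 h it was 1.89% to 2.02%, within the range of the untreated libraries. With the genes named MT- left out of the library sizes, the copper delivery genes again numbered 7 called at 8 h, 6 at 24 h and 4 between the times.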

How the data were processed

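RNA-Seq of MDA-MB-231 cells was analysed in 3 groups of 3 libraries (untreated, TEPA 8 h and TEPA 24 h). Libraries were made with a stranded mRNA kit, per the labels. Reads were checked with FastQC, aligned with HISAT2 to hg38 and counted per gene name with featureCounts, using strand, per the labels and the study's methods. The methods name an Ensembl release of the GRCh38 annotation, while versions of these 3 tools are not given in the sources used here. The deposited values are raw counts, made by the authors without normalization.

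From these, edgeR 4.0.16 in R 4.3.3 was used with filterByExpr (minimum count 10, 16556 genes, at least 99.9% of counts) and TMM factors (0.978 to 1.04). A single quasi-likelihood model held the 9 libraries, tests were 2-sided, and Benjamini-Hochberg adjustment covered every gene tested. The study used DESeq2, which here was an alternative (1.42.0). Standard errors were derived from each log2 fold change and the F of its test. The biological coefficient of variation was 0.0481. With 3 against 3 libraries an exact permutation test could not go below 0.1, so the model across all genes was used. Replicates differed by more than sampling noise, and total counts of 34633755 to 49342659 set the counting error given with the values.

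The members and gene lists were chosen with earlier results of these data known. From each list the text names at most the 3 called genes with the largest changes in each direction, all genes of lists of 6 or fewer, neighbours whose reads could mix with a member's, and the 5 genes most like COX17. The alternatives were RLE and upper-quartile factors, DESeq2, no filter, 10 counts in every library, MT- genes left out, a fit of the 6 libraries compared, a block for the replicate number, a log2 limit of 0.5, unadjusted p-values and leaving out each library. Gene positions are from GENCODE 44 on hg38, another release than the counts were made with, so exons may differ. Promoter sequences are from RefSeq (GRCh38.p14). The procedure was tested on simulated data.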

Additional observations from a re-analysis of the deposited data

Results flagged for a closer look

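Levels at 24 h and at 8 h of TEPA differed, by edgeR's test, for 4 of the 10 copper delivery genes, beside 54.8% of all genes tested. Hours of TEPA and hours in culture cannot be told apart in this difference. The difference on the log2 scale was 0.39 for COA5 (adjusted p = 4.2e-05) and 0.26 for SURF1 (adjusted p = 0.0036), and both were kept when any one library was left out. It was 0.16 for COX17 (adjusted p = 0.029) and 0.17 for COX19 (adjusted p = 0.039), and these were lost in 3 and 4 of the 6 fits with 1 library left out. All 3 libraries at 24 h were higher than all 3 at 8 h for each of the 4 genes, and these groups did not overlap in either direction for 62% of all genes. Groups of 3 libraries were too small to look for single libraries that stood apart.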

How the results depend on the processing

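The number of copper delivery genes called was 7 at 8 h, 6 at 24 h and 4 between the times. With 1 library left out it ran from 4 to 7, from 4 to 6 and from 2 to 4. The low of 4 at 8 h came without untreated replicate 3 or TEPA 8 h replicate 2, the low of 4 at 24 h without TEPA 24 h replicate 3, and the low of 2 between the times without TEPA 8 h replicate 2 or TEPA 24 h replicate 2. With a log2 limit of 0.5 it was 0 in all 3 comparisons, and without a filter it was 2 between the times. The cause was not tested. The calls of COX17, COX19, CMC1 and COA6 at 8 h, of COX19, COX16, COA5 and COA6 at 24 h, and of COA5 and SURF1 between the times were kept in all 6 such fits. SCO1 and COX16 at 8 h were lost under DESeq2 (adjusted p = 0.0664 and 0.0853), without a filter, with only the 2 groups compared and with the block. CMC1 at 24 h was lost under upper-quartile factors, under DESeq2, without a filter and with only the 2 groups compared, and COX19 between the times under DESeq2 and without a filter. COX17 between the times was lost without a filter, and CMC1 between the times was gained with only the 2 groups compared (adjusted p = 0.0272).

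Among the copper delivery genes the direction turned for 3 values, none of them called. COX11 at 24 h was 0.0132 with upper-quartile factors and ran from -0.0657 to 0.0289 with 1 library left out. COA6 between the times was 0.0118 with only the 2 groups compared and ran from -0.0738 to 0.0768, and SURF1 at 24 h ran from -0.0016 to 0.0856. The number called among the other 54 genes of the pathway was 30, 22 and 33, and 29 to 31, 16 to 23 and 30 to 33 with 1 library left out. No scaling moved the median of all genes by more than 0.0265 on the log2 scale.

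No pairing of the libraries by equal replicate numbers was seen. The correlation of same-numbered deviations ran from -0.0801 to 0.0383, and 1 of 9 libraries correlated best with its own number. A weak pairing would not show in this check. With the replicate number as a block, 5 copper delivery genes were called at 8 h, 6 at 24 h and 3 between the times, and 29, 21 and 32 of the other genes. Counting error of 7.52% at the lowest count limits SCO2 and COX16 most.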
